A study of Mus musculus with 10 samples.

Results

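The genes described here serve glutathione, thioredoxin and the removal of peroxides, and they were compared between macrophages of lung metastases and macrophages of normal lung. Members were all gene symbols of the count files that began as glutathione S-transferases (Gst), glutathione peroxidases (Gpx), peroxiredoxins (Prdx) or thioredoxin genes (Txn), together with Nfe2l2, Keap1, Nqo1, Gclc, Gclm, Gss, Gsr, Srxn1, Cat and Sod1. This rule, which used no expression value, gave 66 members among 24538 genes. RNA-seq had been done on 10 libraries of sorted cells from wild-type C57BL6/J mice aged 8 to 10 weeks. The 5 libraries of metastasis-associated macrophages (MAMs) came from lung metastases that were dissected from female mice given E0771-LG cells, a mouse mammary cancer line, through the tail vein. The 5 libraries of resident alveolar macrophages (RAMs) came from normal lungs of mice that were given no tumour cells. Both populations were sorted as CD45+ F4/80+ LY6C- MRC1+ cells with high forward scatter, MAMs as CD11B+ CD11C- and RAMs as CD11C+ CD11B-, and alpha-amanitin and actinomycin D, which block transcription, were present while both tissues were digested. The labels give metastases pooled from 2 to 4 mice for each MAM library, and the published methods give a wider range. By those methods any other sample was an individual mouse, which the labels of the RAM libraries do not state.

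Macrophages in tissue meet hydrogen peroxide, lipid peroxides and electrophiles, many of them of their own making. Glutathione, a peptide with a reactive thiol, is made by glutamate-cysteine ligase (Gclc and Gclm) and glutathione synthetase (Gss), is oxidised when glutathione peroxidases reduce peroxides, is returned to its reduced form by glutathione reductase (Gsr), and is joined to electrophiles by the glutathione S-transferases. Thioredoxin, kept reduced by thioredoxin reductase, hands electrons to the peroxiredoxins. NRF2, the product of Nfe2l2, switches on many of these genes through antioxidant response elements, and KEAP1 marks NRF2 for destruction until electrophiles modify it.

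The libraries held 55391447 to 87523247 counts on genes in MAMs and 50746305 to 72150650 in RAMs. Differences were tested in edgeR by quasi-likelihood, with p adjusted by Benjamini and Hochberg, on the 11571 genes with a mean of at least 1 FPKM (fragments per kilobase of transcript at a fixed library size) in MAMs or in RAMs, and a gene was called with an adjusted p under 0.05 and a fold over 2. Levels of 1 gene are given as CPM, counts scaled to a common library size by TMM. Levels of different genes are set side by side only in FPKM, which are per length. The sorted populations differed in kind as well as in tissue. All 11 tested markers of monocyte-derived macrophages were called higher in MAMs, where their summed FPKM was 11070 to 20374 against 707 to 1596 in RAMs. Of the 11 tested markers of alveolar macrophages, 10 were called lower in MAMs, with sums of 213 to 373 against 9938 to 12691 in RAMs. Chil3 was the most abundant alveolar marker and Cd74 the most abundant marker of monocyte-derived cells. Itgam, which encodes CD11B, ranged from 5848 to 6844 CPM in MAMs and from 59.5 to 72.2 in RAMs, and Itgax, which encodes CD11C, at 145 to 240 in MAMs and 880 to 1110 in RAMs. Tissue, tumour and kind of macrophage cannot be told apart in any difference given here, nor can fewer cells of a type and less RNA per cell.

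Of the 66 members, 45 were tested, and 12 of those were called higher and 6 lower in MAMs. These are 26.7% and 13.3% of the tested members, where 15.3% of all tested genes were called higher and 15.1% lower. Over the 42 members at 1 FPKM or more in both groups, 9 were called higher and 6 lower, 21.4% and 14.3%. By adjusted p alone, 19 members were higher, 11 lower and 15 did not pass, against a background of 28.9% of genes higher and 27.3% lower. The 5 MAM libraries all lay above the 5 RAM libraries for 18 members and all lay below them for 11, where 23.7% and 21.2% of all genes did so. The median log2 fold change was 0.19 over the tested members and -0.02 over all tested genes. Under upper-quartile scaling, which lowered the log2 fold changes of all genes by 0.165 at the median, 11 members were called higher and 9 lower. The replicate spread of the members was like that of other genes, with a median SD of log2 CPM of 0.285 in MAMs and 0.232 in RAMs for members and 0.282 and 0.236 for all tested genes. Of the tested members, 42 reached 1 FPKM in both groups and 3 did so only in MAMs, so Gpx7, Gstm2 and Gstt1 passed the filter through the group in which they were high. The 21 members that were not tested had means of at most 0.913 FPKM in either group and at most 266 counts in any library, and Gpx2, Gpx5, Gsta1 and Txndc8 had no count in any.

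**Figure D1:**
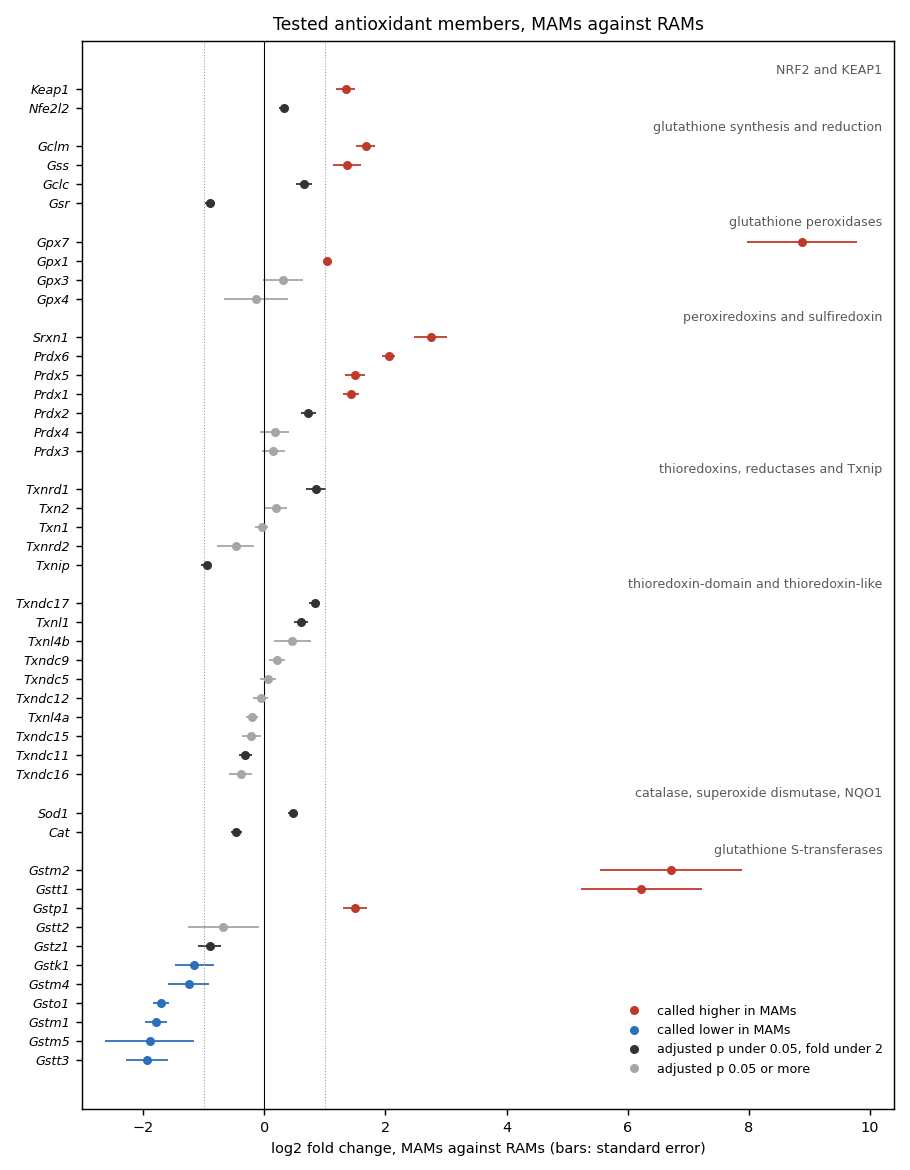
Log2 fold change of each tested member in MAMs against RAMs, with its standard error as a bar, grouped by family. Red points are the 12 members called higher and blue points the 6 called lower, all of them glutathione S-transferases. Dark grey points passed the adjusted p with a fold under 2, light grey points did not pass, and dotted lines mark a fold of 2.

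The calls were not spread evenly over the families. Of 7 tested peroxiredoxin and sulfiredoxin genes 4 were called higher and none lower. Among the 4 genes that make or reduce glutathione 2 were called higher, as were 2 of 4 tested glutathione peroxidases and 1 of the 2 genes Nfe2l2 and Keap1. The 11 tested glutathione S-transferases split into 3 called higher and 6 called lower. Among these higher calls Gpx7, Gstm2 and Gstt1 had passed the filter only through MAMs, where they were high. Over all tested genes 15.3% were called higher and 15.1% lower, and each family holds few genes. No call fell on the 5 tested thioredoxin, thioredoxin reductase and Txnip genes, of which 2 passed the adjusted p at a fold under 2. The same held for the 10 tested thioredoxin-domain and thioredoxin-like genes, of which 3 passed the adjusted p, and for catalase and superoxide dismutase, which both did.

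Promoters were searched because members under NRF2 share a known short element. The core of the antioxidant response element, TGACNNNGC, was looked for on both strands in RefSeq promoters of GRCm38.p6, which run from 250 bases before to 50 bases after a listed start. A start was listed for 57 of the 66 members. The letters occurred in 12 of these, 21.1%, and in 3781 of the 27025 genes with a listed start, 14.0%. Among members called higher they occurred in 3 of 11 with a listed start, Gclm, Prdx1 and Srxn1. Among members called lower they occurred in 1 of 6, Gstm5, and among tested members without a call in 5 of 22, Nfe2l2, Sod1, Txndc11, Txndc5 and Txnrd1. Only this spelling of the element was searched, and a match shows these letters in the window and no more. The 4 stretches below belong to genes whose products supply glutathione, remove peroxide, repair peroxiredoxins and reduce thioredoxin. The capitals mark the match, which in each lies on the opposite strand and therefore reads GCNNNGTCA. It begins 134 bases before the start in Gclm, 133 before in Prdx1, 92 before in Txnrd1 at 1 of its 3 listed starts, and 28 bases past the start in Srxn1, for which 30 bases around it are shown. All 4 are on the plus strand, at chr3:122245307-122245556, chr4:116685349-116685598, chr10:82858956-82859205 and chr2:152105541-152105570 in that order.
Gclm: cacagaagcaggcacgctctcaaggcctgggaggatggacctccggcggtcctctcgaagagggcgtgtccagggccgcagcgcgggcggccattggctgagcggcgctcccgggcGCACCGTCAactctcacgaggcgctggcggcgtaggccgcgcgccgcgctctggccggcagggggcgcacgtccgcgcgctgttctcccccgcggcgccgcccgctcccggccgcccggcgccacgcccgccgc
Prdx1: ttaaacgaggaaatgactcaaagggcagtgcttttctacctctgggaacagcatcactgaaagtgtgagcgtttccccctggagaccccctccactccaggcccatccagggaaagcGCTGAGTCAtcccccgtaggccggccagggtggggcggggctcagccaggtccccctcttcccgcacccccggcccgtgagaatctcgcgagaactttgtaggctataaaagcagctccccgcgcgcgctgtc
Txnrd1: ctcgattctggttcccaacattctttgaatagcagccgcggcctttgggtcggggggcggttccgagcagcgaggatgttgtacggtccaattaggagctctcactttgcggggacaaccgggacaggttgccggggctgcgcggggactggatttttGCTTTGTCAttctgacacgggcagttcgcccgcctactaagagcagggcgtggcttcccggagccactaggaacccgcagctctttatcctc
Srxn1: ggcagtgggcaGCTAGGTCAgagtgagaca

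Nfe2l2, the gene of NRF2, was among the most abundant members in both populations, at 224 ± 25.4 FPKM in MAMs and 179 ± 10.9 in RAMs (SD, n = 5 each), the fifth rank among the members in each. It had 648, 510, 511, 597 and 504 CPM in MAM replicates 1 to 5 and 408, 424, 464, 442 and 458 in RAM replicates 1 to 5. All MAM libraries were above all RAM libraries, by 1.26-fold (log2 fold change 0.33, SE 0.0821, adjusted p = 0.00274, edgeR). The difference did not pass under upper-quartile scaling, where it was 0.17. Keap1, which encodes the adaptor that holds NRF2 down, rose 2.55-fold. Its levels were 47.0, 53.2, 38.5, 43.5 and 50.3 CPM in MAMs and 18.6, 17.2, 13.1, 19.1 and 23.3 in RAMs, with no overlap (log2 fold change 1.35, SE 0.158, adjusted p = 3.01e-06, edgeR). Of the 100-base windows of its longest transcript, 6.3% also occur in Gm16754, an overlapping gene, and counts in that stretch cannot be assigned to either.

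RNA of the enzymes that build glutathione was higher in MAMs, and RNA of the enzyme that reduces its oxidised form was lower. Gclm encodes the modifier subunit of glutamate-cysteine ligase, the step that limits synthesis. It stood at 74.3, 100, 107, 75.3 and 99.1 CPM in MAMs and at 32.6, 25.6, 20.1, 31.3 and 32.9 in RAMs, and the lowest MAM library was over the highest RAM library (log2 fold change 1.68, SE 0.156, adjusted p = 2.43e-07, edgeR). Gclc, the catalytic subunit of the same enzyme, differed less. It had 72.8, 61.5, 83.9, 63.9 and 86.6 CPM in MAMs and 52.1, 35.7, 44.8, 53.1 and 47.9 in RAMs, again without overlap (log2 fold change 0.66, SE 0.134, adjusted p = 0.000642, edgeR). Whether Gclm differed more than Gclc was not tested. Gss, which adds glycine to complete glutathione, had 44.3, 47.8, 25.4, 28.5 and 39.5 CPM in MAMs and 18.7, 14.5, 11, 18 and 9.70 in RAMs. The groups did not overlap, and MAM replicates 3 and 4 lay closest to the RAMs (log2 fold change 1.37, SE 0.226, adjusted p = 0.000102, edgeR). Exons of Gm17494 and Gm6061 overlap those of Gclm, and exons of Acss2, Gssos1 and Gssos2 overlap those of Gss. Of their 100-base windows, Gclm shares 0% and Gss 1.7% with other genes. Gsr, which returns oxidised glutathione to its reduced form at the cost of NADPH, fell. It read 116, 108, 116, 110 and 90.0 CPM in MAMs and 190, 187, 208, 213 and 208 in RAMs. Every MAM library was far under every RAM library, at a fold just short of 2 (log2 fold change -0.90, SE 0.0848, adjusted p = 2.99e-07, edgeR), and under upper-quartile scaling it was called lower at -1.06. Summed over Gclc, Gclm and Gss the level was 86.3 ± 10.3 FPKM in MAMs and 35.3 ± 5.61 in RAMs (SD, n = 5 each), and Gsr alone was at 43.0 ± 5.21 and 79.2 ± 3.99. MAMs thus had more summed FPKM of the synthetic enzymes than of the reductase, and RAMs had more of the reductase.

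The glutathione peroxidases reduce hydrogen peroxide and organic peroxides with glutathione. Gpx1, the cytosolic and most abundant one, ranked first among all members in both populations, at 2306 ± 175 FPKM in MAMs and 1180 ± 82.0 in RAMs (SD, n = 5 each). The gene lies on the plus strand at chr9:108338903-108340343 in GRCm38. In CPM it had 1811, 1895, 1545, 1735 and 1745 in MAMs and 825, 874, 846, 785 and 933 in RAMs. The libraries of each group lay close together and far from the other group (log2 fold change 1.03, SE 0.0705, adjusted p = 6.69e-09, edgeR). The call rests on a fold just over 2 and was lost under upper-quartile scaling, where the log2 fold change was 0.87. Gpx7, an endoplasmic reticulum peroxidase, was present at low level in MAMs and nearly absent in RAMs. It had 5.06, 1.33, 2.86, 1.86 and 3.19 CPM in MAMs, and in RAMs it had 0.0213 in replicate 5 and 0 in the others. These are 773 counts against 1, a ratio of 762 between the groups at equal depth with a 95% interval of 136 to 30122 that covers counting error only. Marker genes of endothelium and fibroblasts summed to 10.3 to 21.9 FPKM in MAMs and 0.770 to 4.41 in RAMs. All 5 tested of those 11 genes were called higher. Pecam1 was the most abundant, at 1.32 to 8.99 FPKM in MAMs and 0.248 to 1.27 in RAMs, Kdr was at 2.12 to 9.47 and 0.0533 to 0.346, and Pdgfra at 0.302 to 2.92 and 0 to 0.237, while Cldn5 and Lum were at 0 in every MAM library. The sum was highest in MAM replicates 3 and 4 and Gpx7 in replicate 1, and the part of such cells in Gpx7 was not tested. Gpx3, a secreted form, and Gpx4, which reduces lipid peroxides in membranes, did not pass the test. Gpx4 was at only 1.49 ± 0.516 FPKM in MAMs and 1.75 ± 0.781 in RAMs (SD, n = 5 each). Of the 100-base windows of its longest transcript 48.4% are also found in transcripts of other genes, mainly Gpx4-ps2, a pseudogene, and reads there may not have been counted, so its level is uncertain.

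**Figure D2:**
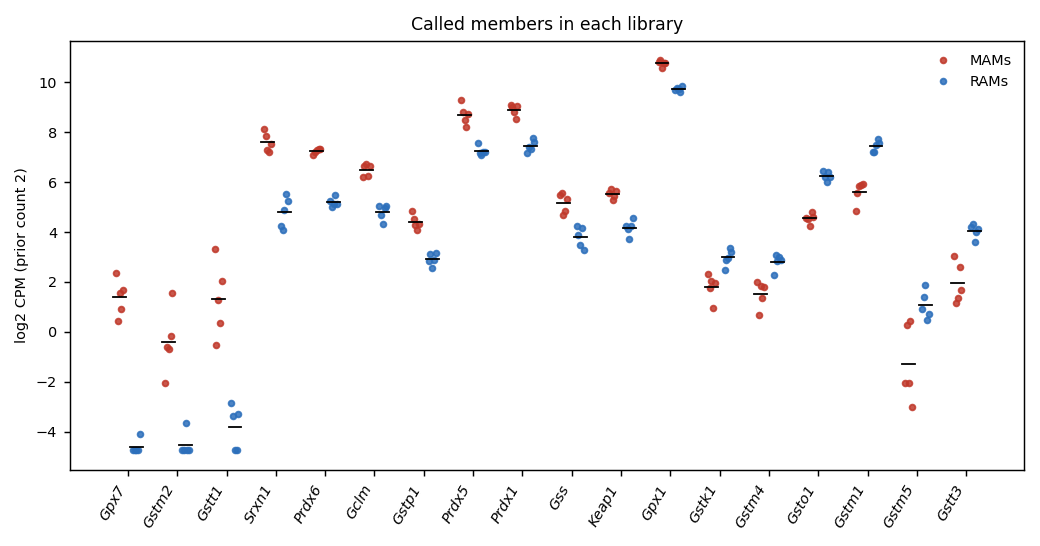
Level of the 18 called members in each library as log2 CPM with a prior count of 2, ordered by fold change. Red points are the 5 MAM libraries, blue points the 5 RAM libraries and black lines the group means. No called member overlaps between the groups, and Gpx7, Gstm2 and Gstt1 sit at or near 0 counts in RAMs.

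Peroxiredoxins clear much of the peroxide in cells, and sulfiredoxin repairs peroxiredoxins that peroxide has overoxidised. The 7 peroxiredoxin genes summed to 1072 ± 226 FPKM in MAMs and 415 ± 40.1 in RAMs (SD, n = 5 each), a ratio of 2.58, and the lowest MAM library, at 795, was above the highest RAM library, at 470. Srxn1, the sulfiredoxin gene at chr2:152105516-152111376, had the largest change among members at 1 FPKM or more in both populations. It read 278, 229, 158, 148 and 185 CPM in MAMs and 18.9, 16.8, 29.5, 46.1 and 37.6 in RAMs. MAM libraries were all several-fold over the RAM libraries (6.71-fold, log2 fold change 2.75, SE 0.267, adjusted p = 3.90e-07, edgeR), and its rank among the members by FPKM was 9 in MAMs and 27 in RAMs. Prdx6, at chr1:161240112-161251219 on the minus strand, which reduces phospholipid peroxides and uses glutathione rather than thioredoxin, had the smallest adjusted p of all members. It was at 134, 148, 158, 163 and 159 CPM in MAMs and 37.4, 31.8, 35.0, 44.5 and 35.0 in RAMs. Both groups were tight and far apart (4.15-fold, log2 fold change 2.05, SE 0.104, adjusted p = 2.08e-10, edgeR).

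Prdx5, found in mitochondria, peroxisomes and cytosol, was the most abundant peroxiredoxin at 646 ± 185 FPKM in MAMs and 234 ± 39.2 in RAMs (SD, n = 5 each). It had 632, 445, 360, 293 and 428 CPM in MAMs and 191, 144, 137, 148 and 147 in RAMs. Replicate 1 was the highest library in both groups, and the groups did not overlap (log2 fold change 1.49, SE 0.166, adjusted p = 1.72e-06, edgeR). Its gene shares 10.5% of its windows with Trmt112, which overlaps it. Prdx1, the main cytosolic peroxiredoxin, had 543, 520, 448, 372 and 530 CPM in MAMs and 143, 172, 162, 219 and 196 in RAMs. All MAM libraries exceeded all RAM libraries (2.70-fold, log2 fold change 1.43, SE 0.125, adjusted p = 1.19e-07, edgeR). Prdx2, a cytosolic form that red cells hold in quantity, rose 1.65-fold, from 43.4 to 58.8 CPM in RAMs to 71.6 to 105 in MAMs (log2 fold change 0.73, SE 0.121, adjusted p = 0.00011, edgeR). Exons of Junb and Rnaseh2a overlap those of Prdx2. It shares 12.8% of its windows with other transcripts, mainly those of Junb, so part of its counts may belong to neighbours. Erythroid markers summed to 0.606 to 15.0 FPKM in MAMs, highest in replicate 5, and to 0.356 to 0.767 in RAMs, where Prdx2 was at 61.7 ± 9.01 and 36.5 ± 4.66 FPKM (SD, n = 5 each). Hbb-bs, a beta globin gene, was 13.2 FPKM of the sum in its highest MAM library, and without it the sums were 0.603 to 1.75 in MAMs and 0.352 to 0.763 in RAMs. No erythroid marker was tested, since Hbb-bs, Hba-a1 and Hba-a2 were listed with FPKM but had no count in any library. The labels record lysis of red blood cells before the sort, and the part of such cells in Prdx2 was not tested. Prdx3, the mitochondrial peroxiredoxin, and Prdx4, that of the endoplasmic reticulum, did not pass, with log2 fold changes of 0.15 (SE 0.187) and 0.17 (SE 0.239). The cytosolic peroxiredoxins Prdx1 and Prdx2, with Prdx5 and Prdx6, were thus the ones that passed the test.

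**Figure D3:**
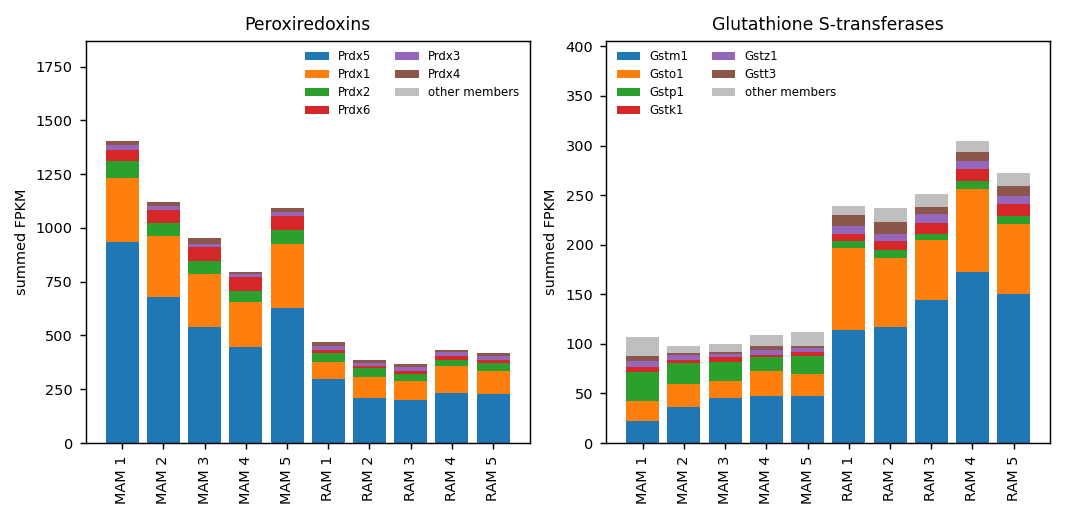
Summed FPKM of the peroxiredoxins (left) and of the glutathione S-transferases (right) in each library, stacked by gene, with members outside the 6 most abundant in grey. The peroxiredoxin sum is 795 to 1403 in MAMs and 366 to 470 in RAMs, while the transferase sum is 97.5 to 112 in MAMs and 237 to 304 in RAMs, mostly Gstm1 and Gsto1.

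Glutathione S-transferases join glutathione to electrophiles, and their total went the other way. Over the 22 genes it was 105 ± 6.11 FPKM in MAMs and 261 ± 28.2 in RAMs (SD, n = 5 each), 2.49-fold lower in MAMs, and 1.87-fold lower without Gstm1. By class, the mu genes summed to 44.9 ± 11.5 FPKM in MAMs and 149 ± 24.4 in RAMs, the omega genes to 21.8 ± 3.14 and 73.7 ± 9.91, the theta genes to 8.22 ± 5.99 and 12.2 ± 1.86, and the pi genes to 20.6 ± 5.79 and 7.38 ± 0.969 (SD, n = 5 each). The alpha class was under 1 FPKM in every library. The pi class was thus the one whose sum was higher in all MAM libraries.

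The mu class lies in a cluster of 7 genes on chromosome 3, from 107895821 to 108044894 in GRCm38, and its members differed in direction. Gstm1 carried most of the class. It had 28.4, 47.2, 57.1, 59.5 and 60.8 CPM in MAMs and 150, 147, 179, 213 and 187 in RAMs. Every MAM library was under every RAM library, replicate 1 lowest (log2 fold change -1.79, SE 0.181, adjusted p = 5.99e-07, edgeR). Gstm4 fell as well, from 4.83, 8.44, 7.21, 7.93 and 7.27 CPM in RAMs to 3.90, 1.54, 3.58, 2.55 and 3.48 in MAMs. Its groups came close, with RAM replicate 1 just over the highest MAM library (log2 fold change -1.24, SE 0.335, adjusted p = 0.00518, edgeR). Gstm5 was lower at 0.203, 1.16, 0.201, 1.30 and 0.0862 CPM in MAMs and 1.83, 2.60, 3.62, 1.34 and 1.60 in RAMs. MAM replicates 2 and 4 nearly reached the lowest RAM library (log2 fold change -1.89, SE 0.729, adjusted p = 0.0386, edgeR), and the call was lost without MAM replicates 1, 3 or 5 (log2 fold changes -1.67, -1.67 and -1.61), without RAM replicates 1, 2 or 3 (-1.95, -1.83 and -1.64), and under 3 other settings. Gstm2, inside the same cluster, was detected in MAMs. It had 0.203, 0.619, 0.581, 0.850 and 2.92 CPM there, and in RAMs 0.0414 in replicate 3 and 0 elsewhere. These are 319 counts against 2, a ratio of 157 with a 95% interval of 43.2 to 1303 for counting error, and 203 of the 319 counts were in replicate 5. Without that library, and under edgeR's own filter, the gene fell below the level for testing. Gstm6, not tested, had 61 counts in MAM replicate 5 and 0 in the other 9 libraries. Without that library the groups did not differ in this gene. Of the 100-base windows of their longest transcripts, Gstm1 and Gstm3 share 7.7% and 13.8% with other mu genes or related pseudogenes, Gstm5 shares 5.5% with 4933431E20Rik, which overlaps it, and Gstm2 and Gstm4 share 0.6% and 0%.

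The theta cluster on chromosome 10, from 75774115 to 75837424, held neighbours whose levels differed in opposite directions. Gstt3 was lower in MAMs, at 8.15, 2.19, 2.50, 6.01 and 3.16 CPM against 18.5, 20.1, 12.1, 15.9 and 17.4 in RAMs. No MAM library reached a RAM library (log2 fold change -1.93, SE 0.351, adjusted p = 0.000239, edgeR). Gstt1, the next gene, was higher in MAMs, at 9.98, 0.656, 2.42, 1.25 and 4.05 CPM against 0.103, 0.0601, 0, 0 and 0.0639 in RAMs. The MAM libraries varied widely, with replicate 1 highest and replicate 2 lowest, and all were above the RAM libraries. Since Gstt1 entered the test through its level in MAMs alone, its fold change of 6.22 on the log2 scale is given as a description. Gstt4 had 35 counts in MAMs, 31 of them in replicate 1 and 4 in the other MAM libraries, and 0 in RAMs, so its level in MAMs rests on 1 library. Gstt2 did not pass the test.

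Gsto1, at chr19:47854970-47864790, which removes glutathione from proteins and reduces dehydroascorbate, had 23.4, 23.2, 18.8, 28.2 and 24.6 CPM in MAMs and 87.1, 74.0, 63.7, 85.9 and 73.4 in RAMs. The gap between the groups was wider than the spread within either (3.25-fold lower in MAMs, log2 fold change -1.70, SE 0.130, adjusted p = 2.58e-08, edgeR). Gstk1, of mitochondria and peroxisomes, had 4.96, 3.30, 4.09, 1.90 and 3.82 CPM in MAMs and 5.50, 7.42, 7.79, 10.3 and 9.10 in RAMs. MAM replicate 1 came close to RAM replicate 1 (log2 fold change -1.15, SE 0.319, adjusted p = 0.00641, edgeR), and without MAM replicate 4 the fold was under 2, at -0.99. Gstz1, which also breaks down tyrosine, fell by a fold under 2 (log2 fold change -0.90, SE 0.194, adjusted p = 0.00101, edgeR). Gstp1, the pi-class gene of most tissues, was the abundant transferase that rose. It had 28.5, 22.7, 19.3, 16.8 and 19.9 CPM in MAMs and 7.14, 8.62, 5.88, 7.41 and 9.02 in RAMs. The groups were well apart (2.82-fold, log2 fold change 1.49, SE 0.201, adjusted p = 1.31e-05, edgeR), although 52.8% of its windows are shared with other transcripts, mainly those of Gstp2, which had 54 counts in MAMs and 4 in RAMs. Glutathione S-transferases are also expressed in airway epithelium. The 13 epithelial markers summed to 7.13 to 26.4 FPKM in MAMs and 119 to 169 in RAMs, and 7 of 9 tested were called lower. In RAMs Epcam was the most abundant, at 29.8 to 61.1 FPKM. There Scgb1a1 was at 36.1 to 47.2, Cdh1 at 24.9 to 35.3 and Sftpc at 11.1 to 37.7. Krt8, Krt18, Sftpd and Ager reached higher values in MAMs. Krt8 was at 0.332 to 1.87 FPKM in MAMs and 0 to 0.127 in RAMs. Krt18 was at 0 to 7.92 and 0 to 0.435, and Sftpd at 0 to 0.726 and 0 to 0.208. Ager was at 0.0936 to 1.85 and 0.626 to 1.78, with medians of 0.492 in MAMs and 0.873 in RAMs. The part of epithelial RNA in the transferases was not tested.

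RNA of thioredoxin itself did not differ detectably. Txn1, which ranked 3 in MAMs and 2 in RAMs by FPKM among the members, had 451, 376, 329, 302 and 320 CPM in MAMs and 359, 336, 336, 406 and 395 in RAMs. The groups overlapped through most of their range (log2 fold change -0.04, SE 0.105, adjusted p = 0.752, edgeR). Txnrd1, the cytosolic reductase that recharges thioredoxin, was higher in MAMs at 232, 209, 221, 157 and 218 CPM against 102, 87.5, 89.9, 131 and 165. MAM replicate 4 lay under RAM replicate 5 (log2 fold change 0.85, SE 0.163, adjusted p = 0.000394, edgeR), and without RAM replicate 5 the gene was called, at 1.01. Txnip, which binds reduced thioredoxin and inhibits it, was lower. Its levels were 183, 165, 179, 210 and 187 CPM in MAMs and 334, 372, 377, 300 and 401 in RAMs, with no overlap (log2 fold change -0.95, SE 0.0905, adjusted p = 3.16e-07, edgeR). The gene was called lower under upper-quartile scaling (-1.11) and, at a fold just over 2, without MAM replicate 4 or RAM replicate 4, and 15.1% of its windows are shared with the overlapping gene Gm15441. The mitochondrial pair Txn2 and Txnrd2 did not pass, at 0.19 (SE 0.178) and -0.47 (SE 0.302) on the log2 scale.

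Among thioredoxin-domain and thioredoxin-like genes, 7 of 10 tested did not pass. Txndc17, a cytosolic disulfide reductase, rose from 50.6 to 62.5 CPM in RAMs to 92.9 to 116 in MAMs (log2 fold change 0.83, SE 0.0978, adjusted p = 3.15e-06, edgeR). Txnl1, a thioredoxin bound to the proteasome, rose from 69.6 to 88.9 CPM to 92.4 to 139 (log2 fold change 0.61, SE 0.118, adjusted p = 0.0004, edgeR). Neither overlapped between the groups. Txndc11, a protein of the endoplasmic reticulum, was lower by 0.31 on the log2 scale (adjusted p = 0.0208, edgeR) and did not pass under 6 other settings, 2 of which left out RAM replicate 2 or 3 (-0.29 and -0.28). The endoplasmic reticulum proteins Txndc5, Txndc12, Txndc15 and Txndc16 had log2 fold changes between -0.39 and 0.07.

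RNA of catalase and of superoxide dismutase, enzymes that need neither glutathione nor thioredoxin, moved modestly and apart. Cat, which splits hydrogen peroxide in peroxisomes, had 234, 263, 217, 197 and 238 CPM in MAMs and 284, 310, 318, 358 and 308 in RAMs. All MAM libraries were under all RAM libraries (log2 fold change -0.46, SE 0.0871, adjusted p = 0.000362, edgeR). Sod1, which turns superoxide into hydrogen peroxide in the cytosol, had 115, 107, 119, 106 and 111 CPM in MAMs and 82.6, 77.4, 76.4, 80.7 and 85.2 in RAMs. Here the MAM libraries were all above the RAM libraries (log2 fold change 0.47, SE 0.0771, adjusted p = 9.15e-05, edgeR). Nqo1, a quinone reductase often used as a readout of NRF2, was too low to be tested, at 1.02, 1.99, 0.649, 0.579 and 2.41 CPM in MAMs and 0.188, 0.390, 0.393, 1.25 and 1.64 in RAMs. Its groups overlapped, and it stood at 385 and 193 counts in all.

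The other genes of the pathway were taken from lists of general knowledge, and some genes stand on more than 1 list. Their counts are to be read beside the 15.3% of all tested genes called higher and 15.1% called lower. Of 22 tested NRF2 target genes outside the members, 11 were called higher and 2 lower, with a median log2 fold change of 0.88. Akr1b8, an aldo-keto reductase, rose from 0.345 to 2.00 CPM in RAMs to 27.1 to 48.2 in MAMs (log2 fold change 4.85, SE 0.391, adjusted p = 4.62e-08, edgeR). Osgin1, a growth inhibitor induced by oxidative stress, was at 4.46 (SE 0.744) and Slc40a1, the iron exporter ferroportin, at 4.17 (SE 0.252) on the log2 scale, and the groups did not overlap for either. Of 12 regulators and partners of NRF2, 2 were called higher and 1 lower, with a median of 0.37. Mafg, a small MAF protein that pairs with NRF2, rose from 11.5 to 18.1 CPM in RAMs to 38.0 to 44.9 in MAMs (log2 fold change 1.49, SE 0.152, adjusted p = 6.73e-07, edgeR). Its relative Maff went the other way (log2 fold change -2.04, SE 0.225), and Bach2, a repressor that competes for the same elements, rose by 1.89 (SE 0.395).

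Of 27 tested other glutathione enzymes and transporters, 9 were called higher and 6 lower, with a median log2 fold change of 0.15. Slc7a11, which imports the cystine needed to make glutathione, rose from 14.8 to 100 CPM in RAMs to 280 to 438 in MAMs (log2 fold change 3.32, SE 0.449, adjusted p = 1.39e-05, edgeR). Anpep, an aminopeptidase that cleaves the dipeptide left when glutathione is broken down outside the cell and that marks many myeloid cells, had the largest change of the list (log2 fold change 5.83, SE 0.216). Mgst3, a microsomal glutathione transferase, fell from 35.3 to 51.3 CPM in RAMs to 3.64 to 6.11 in MAMs (log2 fold change -3.19, SE 0.20, adjusted p = 2.64e-09, edgeR). Of 14 tested genes that supply NADPH, the electron source of both reductases, 2 were called higher and 3 lower, with a median of -0.46. RNA of Nnt, the gene of the mitochondrial transhydrogenase, was lower (log2 fold change -1.38, SE 0.132). RNA of Mthfd2, of mitochondrial folate metabolism, and of H6pd, of the endoplasmic reticulum, was higher (1.62, SE 0.197, and 1.30, SE 0.129). Whether either population held a working transhydrogenase is not known from these data, and NADPH supply was not measured. Of 14 tested other enzymes against peroxide, superoxide and oxidised methionine, 4 were called higher and 1 lower, with a median of 0.10. Sod3, the extracellular superoxide dismutase, which vessels and fibroblasts also make, rose from 0.0207 to 0.420 CPM in RAMs to 8.10 to 21.9 in MAMs (log2 fold change 5.99, SE 0.618, adjusted p = 7.65e-07, edgeR). Sod2, the mitochondrial form, rose by 1.46 (SE 0.161). Sesn3, a sestrin, was called higher at 2.18 (SE 0.786) although its libraries overlapped.

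**Figure D4:**
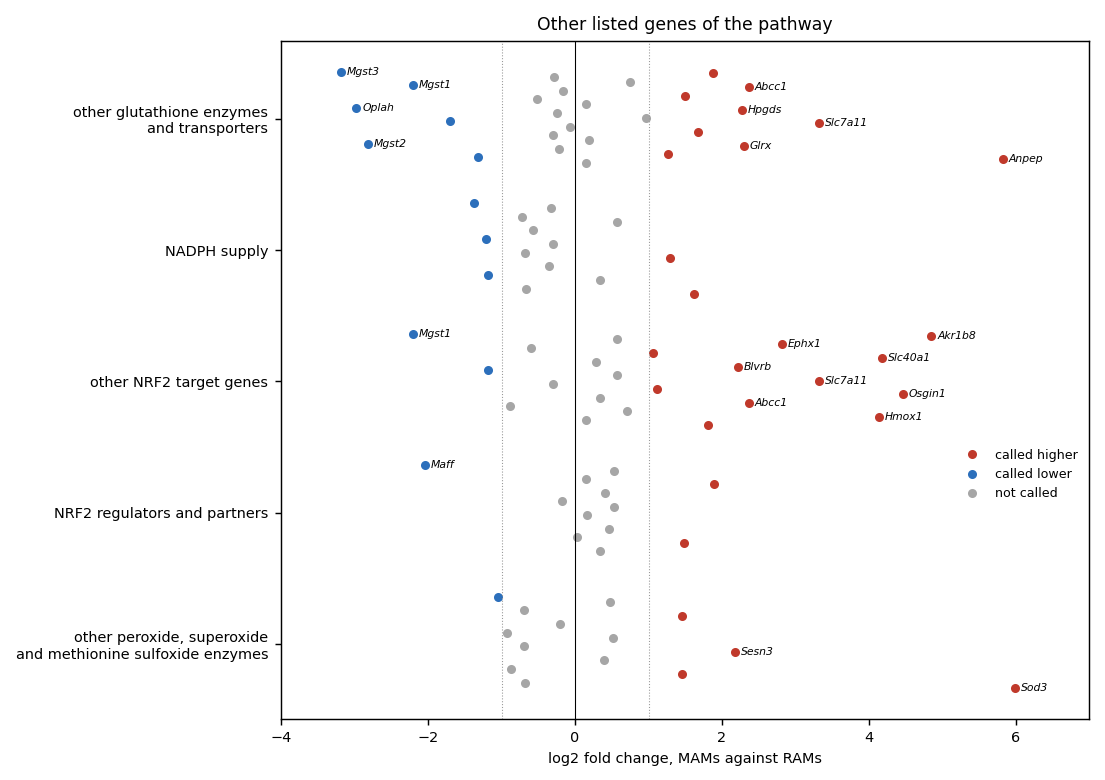
Log2 fold change in MAMs against RAMs of the tested genes of 5 other lists of the pathway, 1 row of points per list, with the vertical position within a list chosen only to separate points. Red points were called higher and blue points lower, grey points were not called, dotted lines mark a fold of 2, and genes beyond 2 on the log2 scale are named. The NRF2 target list has 11 red and 2 blue points.

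Markers of other cells that a sort could carry were summed as well. Neutrophil markers summed to 37.4 to 111 FPKM in MAMs and 28.4 to 39.0 in RAMs. Csf3r was the most abundant, at 22.0 to 44.9 and 11.4 to 18.6, with 3 of 4 tested called higher and 1 lower, and Elane had no count. Lymphocyte markers summed to 6.96 to 15.5 FPKM in MAMs and 3.57 to 14.1 in RAMs, with Cd79b the most abundant and 1 of 5 tested called higher. Markers of mammary tumour cells summed to 7.85 to 22.3 FPKM in MAMs and 547 to 674 in RAMs, whose lungs held no tumour, with 3 of 4 tested called lower, and Krt19 made up 464 to 595 of the RAM sum. Epcam was at 0.366 to 0.561 FPKM in MAMs and 29.8 to 61.1 in RAMs, and Cdh1 at 0.459 to 2.50 and 24.9 to 35.3. Krt8, Krt18, Krt14, Krt7 and Wfdc2 reached higher values in MAMs. Krt8 was at 0.332 to 1.87 FPKM in MAMs and 0 to 0.127 in RAMs. Krt18 was at 0 to 7.92 and 0 to 0.435, and Krt14 at 0 to 0.522 and 0 throughout. Krt7 was at 0.104 to 0.638 and 0 to 0.584, and Wfdc2 at 0 to 1.60 and 0 to 0.992. Krt5 had no count in any library. The part of these cells in the members' differences was not tested.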

How the data were processed

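RNA-seq of 5 MAM and 5 RAM libraries was analysed. Per the labels and methods, RNA was amplified with the Ovation RNA-Seq System V2, sequenced as read pairs, aligned to GRCm38 with TopHat2 2.0.13, and counted with HTSeq 0.6.1. The authors deposited whole-number counts per gene, and FPKM values from Cufflinks 2.2.1. The strand setting of the counting is not given in the sources used here, so overlapping and antisense genes cannot be separated. Lines naming no gene, on average 56.5% of MAM and 63.2% of RAM lines, were left out.

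Genes with a mean of at least 1 FPKM in either group and any count were fitted with edgeR 4.0.16 in R 4.3.3 (TMM, quasi-likelihood, two-sided, no covariates). A count of 0 allows up to 3 counts, and intervals cover counting error only. Positions came from GENCODE on GRCm38. On simulated data edgeR recovered 84% of 200 changed genes with 2 false calls among 11571 genes. In the data 1766 genes were called higher and 1745 lower. The simulation changed far fewer, so it does not give the rate of false calls in such a comparison. Alternatives were RLE and upper-quartile scaling, other filters, DESeq2 1.42.0, limma 3.58.1 on log2 FPKM with 1 or 0.1 added, edgeR's threshold test at a fold of 2, a replicate block, and each library left out. Members without overlapping or shared sequence were counted alone as an alternative chosen after seeing the data. Per-library values were given for called members, the 5 most abundant, Txnip and the 10 genes added by name, and for Txnrd1, chosen after its values were seen. Outside the members, up to 3 called genes of each list by size of change, the top gene of each marker list, Itgam and Itgax were named, and other markers after their values were seen. Members and lists were chosen with earlier results of these data known.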

Additional observations from a re-analysis of the deposited data

Results flagged for a closer look

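In 8 of 90 combinations of a tested member and a group, 1 library lay apart from the other 4 by Dixon's criterion, which chance alone meets in about 1 of 20. Gpx7 had 0.0213 CPM in RAM replicate 5 and Gstm2 0.0414 in RAM replicate 3, where the other RAM libraries had none. With the other 4 libraries at 0, any count meets the criterion, so the rate of 1 of 20 does not apply to Gpx7 and Gstm2. Gsr was at 90.0 CPM in MAM replicate 5, under 108 to 116 in the other MAMs. Gstm4 was at 4.83 CPM in RAM replicate 1, under 7.21 to 8.44. Prdx5 was at 191 CPM in RAM replicate 1, over 137 to 148. Txndc11 was at 35.1 CPM in MAM replicate 3, under 38.2 to 38.9. Txnrd1 was at 157 CPM in MAM replicate 4, under 209 to 232. Txnrd2 was at 3.04 CPM in MAM replicate 2, under 7.09 to 9.60.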

How the results depend on the processing

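Over the settings planned beforehand 10 to 13 members were called higher and 3 to 9 lower in MAMs. Over all genes 1399 to 2349 were called higher and 1112 to 2323 lower. The fewest lower calls, 3 members and 1112 genes, came from the test against a fold of 2, which asks for more than a fold of 2 beyond error. Gpx1, Gss, Gstk1, Gstm4 and Gstm5 were the called members that lost their call there, and on log2(FPKM + 1) with limma Gpx1, Gstm2 and Gstm4 did. Without members that overlap or share sequence with other genes, an alternative chosen after seeing the data, 27 were tested. Of these 7 were called higher and 3 lower, 25.9% and 11.1%. Leaving out 1 library gave 11 to 13 members higher and 5 to 7 lower. The same replicate numbers did not pair the libraries, since correlations of their deviations ran from -0.0366 to 0.0294, and with a replicate block 12 members were called higher and 6 lower. Signs reversed only for members that did not pass the test: under upper-quartile scaling Prdx3 was at -0.0152 and Txndc5 at -0.10, and with 1 library left out Gpx4 ran from -0.40 to 0.21, Txn1 from -0.14 to 0.0099, Txndc12 from -0.11 to 0.017 and Txndc5 from -0.0020 to 0.13. Depth limits the members near 0 counts, such as Gstm2 and Gstm6.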
